A study of Homo sapiens with 17 samples.

Results

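The 10 genes described here encode matrix glycoproteins and surface receptors by which fibroblasts and related mesenchymal cells are commonly recognised. They are SPARC, FN1, POSTN, TNC, CILP, VCAN and FBN1, whose products are secreted, and THY1, PDGFRA and PDGFRB, whose products sit in the plasma membrane. They were chosen by gene name, as 10 of the 20218 genes of an RNA-seq table of 17 libraries. The source of all cells was H9, a human embryonic stem cell line, here carrying a SHOX2 reporter, and the cells were sorted on GFP and mCherry 25 or 40 days after directed differentiation. There were 2 GFP+mCherry+ libraries of day 40 and 3 of day 25, and the GFP-mCherry+ and GFP-mCherry- populations each had 3 per day. The label of every library calls its cells derived sinoatrial-node-like, the GFP-mCherry+ and GFP-mCherry- libraries included. The labels do not name the gene behind mCherry; MYH6, the atrial myosin heavy chain gene, was taken for it here. The growth protocol starts with CHIR99021, BMP4 and Activin A and goes on either with XAV939 (cardiomyocytes) or with cucurbitacin, retinoic acid, SU5402, XAV939, Tyrphostin AG 490 and chidamide (sinoatrial cells). It does not say which of these procedures each library had. A single line was used, and separate cultures behind the libraries of a group are not recorded, so p-values measure spread among libraries that could be technical repeats.

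Fibroblasts build and remodel the extracellular matrix of the heart. Fibronectin (FN1) forms fibrils that cells grip through integrins, fibrillin-1 (FBN1) polymerises into the microfibrils that carry elastin and bind latent TGF-beta, and versican (VCAN) is a large chondroitin sulfate proteoglycan that binds hyaluronan. SPARC, periostin (POSTN) and tenascin-C (TNC) are matricellular proteins, which bind matrix and modulate how cells attach to it, and CILP is a matrix protein originally found in cartilage and made by cardiac fibroblasts in scarred hearts. THY1 is a glycolipid-anchored surface glycoprotein used to sort mesenchymal cells. PDGFRA and PDGFRB are receptor tyrosine kinases for the platelet-derived growth factors, PDGFRB being typical of pericytes and smooth muscle and both being found on fibroblasts.

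RefSeq promoter sequences (GRCh38.p14) were at hand for 9 of the 10 genes, THY1 being the one without. Shown are the 250 bases before the start sites of SPARC, PDGFRB and FBN1, the members that differed between the mCherry+ populations at both days, and of VCAN, the 1 member called higher in GFP-mCherry+ than in GFP-mCherry- cells. The windows are SPARC at chr5:151686916-151687165 (minus strand), PDGFRB at chr5:150155846-150156095 (minus strand), FBN1 at chr15:48644971-48645220 (minus strand) and VCAN at chr5:83471494-83471743 (plus strand), each printed 5′ to 3′ in the gene's direction. Capitals mark GGAATG, the core motif of TEAD factors, or its reverse complement in SPARC and FBN1, and the reverse complement of GGGCGG, the GC box, in PDGFRB and VCAN.
SPARC: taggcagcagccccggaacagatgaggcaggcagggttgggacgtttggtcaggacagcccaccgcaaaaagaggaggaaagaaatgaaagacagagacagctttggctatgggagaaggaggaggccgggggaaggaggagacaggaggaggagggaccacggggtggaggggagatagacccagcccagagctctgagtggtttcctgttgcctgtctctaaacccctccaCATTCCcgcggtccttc
PDGFRB: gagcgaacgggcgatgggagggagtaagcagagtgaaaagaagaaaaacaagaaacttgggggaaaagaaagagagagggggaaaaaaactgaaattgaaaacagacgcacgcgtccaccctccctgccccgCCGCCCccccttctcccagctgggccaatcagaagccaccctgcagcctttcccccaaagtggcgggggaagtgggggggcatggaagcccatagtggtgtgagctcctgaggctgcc
FBN1: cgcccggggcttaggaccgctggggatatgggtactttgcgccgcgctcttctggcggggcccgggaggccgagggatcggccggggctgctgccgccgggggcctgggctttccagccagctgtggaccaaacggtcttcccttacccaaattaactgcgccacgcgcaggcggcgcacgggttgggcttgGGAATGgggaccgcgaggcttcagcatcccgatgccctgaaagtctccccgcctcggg
VCAN: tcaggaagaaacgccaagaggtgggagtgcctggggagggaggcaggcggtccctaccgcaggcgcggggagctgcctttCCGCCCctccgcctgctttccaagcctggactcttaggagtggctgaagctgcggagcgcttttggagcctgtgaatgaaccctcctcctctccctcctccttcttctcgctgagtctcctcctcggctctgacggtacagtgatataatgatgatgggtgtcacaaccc
Searched on both strands, GGAATG was in 2 of the 9 members' promoters, SPARC (17 bases before the start) and FBN1 (58 bases before it), and in 11.9% of 35116 promoter windows of that length. The GC box GGGCGG was in 5 of 9 (FN1, PDGFRA, PDGFRB, TNC and VCAN) and in 42.6% of all windows. TATAAA was in POSTN alone (10.7% of all), TGANTCA in PDGFRA and POSTN (6.57%), and the CArG box in 0 of 9 (1.16%). TGANTCA is the AP-1 site only with C or G in the middle, as in POSTN (TGAGTCA) but not in PDGFRA (TGAATCA). These are matches of letters and were not related to the levels below.

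The values are FPKM, fragments mapped to a gene scaled by its transcript length and by the size of the library, so levels can be set beside each other across genes. Summed FPKM ran from 566029 to 660085 a library, and 12944 to 13793 genes reached 1 FPKM. Read depth was not given in the files used. SHOX2 stood at 49.0 to 139 FPKM in the 5 GFP+mCherry+ libraries and at 0.25 to 2.41 FPKM in the other 12, in step with the GFP labels. MYH6 stood at 4.76 to 7.09 FPKM in the GFP-mCherry- libraries other than library 12, which held 41.9 FPKM. The mCherry+ libraries held 203 to 765 FPKM of MYH6, except for a listed 0 in the third GFP-mCherry+ library of day 40 (library 17). In their marker sums, 3 libraries stood apart: library 1 (GFP+mCherry+ day 25, replicate 1), library 14 (GFP-mCherry+ day 40, replicate 2) and library 12 (GFP-mCherry- day 40, replicate 1). Libraries 13 (GFP+mCherry+ day 40) and 14 also had the fewest genes above 0, 16493 and 16598.

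The members differed widely in level. SPARC was the most abundant, among the 7 highest genes of every GFP+mCherry+ and GFP-mCherry- library and at ranks 16 to 88 in the GFP-mCherry+ libraries. FN1 was next, VCAN lay between 53.7 and 232 FPKM, and POSTN, THY1, PDGFRA, PDGFRB, TNC and FBN1 lay between 6.22 and 184 FPKM. CILP was the lowest, at 1.35 to 32.7 FPKM. All 10 passed the filter for testing (2 or more libraries with 1 FPKM or more), and 9 of them reached 1 FPKM in all 17 libraries, FN1 being the exception. In the deposited table (hg19) SPARC lies at chr5:151040657-151066726, FN1 at chr2:216225163-216300895, POSTN at chr13:38136720-38172981, TNC at chr9:117782806-117880536 and CILP at chr15:65488337-65503826. VCAN lies at chr5:82767284-82878122, FBN1 at chr15:48700503-48938046, THY1 at chr11:119288090-119295695, PDGFRA at chr4:55095264-55164414 and PDGFRB at chr5:149493400-149535435. The values are of whole genes. Together the members made up 0.247% to 2.51% of a library's summed FPKM.

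**Figure D1:**
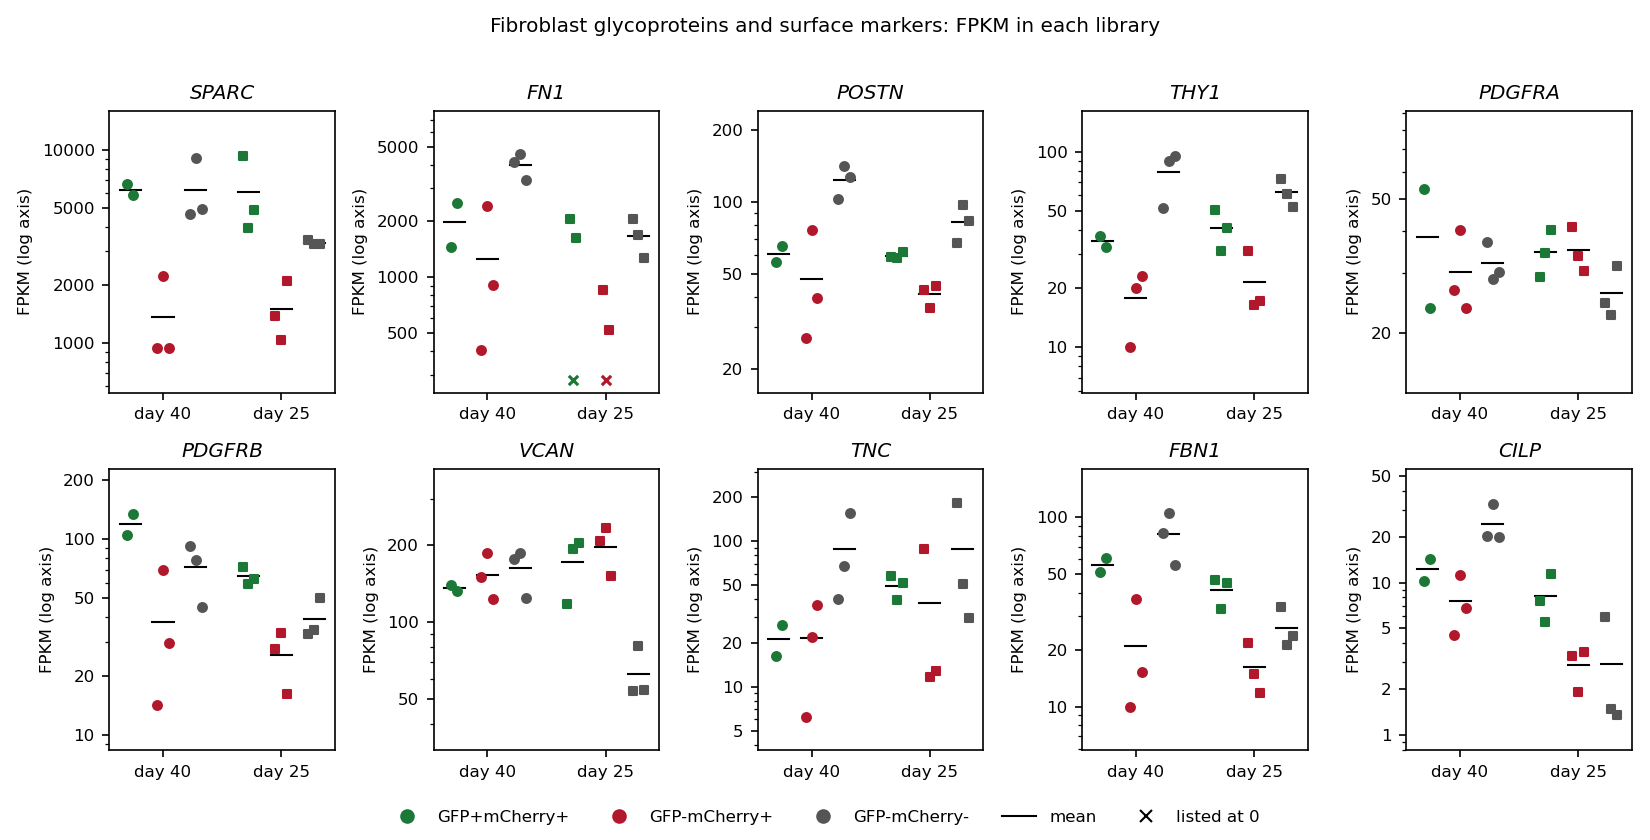
FPKM of each member (log axis) in each of the 17 libraries, with day 40 left of day 25 and the sorted populations in colour; black lines are group means, not drawn for the groups where FN1 is listed at 0 (crosses). SPARC, PDGFRB and FBN1 lie higher in GFP+mCherry+ than in GFP-mCherry+ libraries, PDGFRA lies between 22.6 and 53.5 FPKM throughout, and VCAN is lowest in the GFP-mCherry- libraries of day 25.

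FN1 is reported with a reservation. It was listed at exactly 0 in the third GFP+mCherry+ and the third GFP-mCherry+ library of day 25 (libraries 7 and 8), while the other 15 libraries held 409 to 4565 FPKM. Values of this kind (0 in 1 library, at least 5 FPKM in every other library of the group) occurred 41 times in 33 genes, TGFBI and MYH6 among them. They may be failed estimates and were left out of the tests, so that FN1 was fitted on 15 libraries and MYH6 on 16. With the zeros kept as deposited, FN1 was called in no comparison.

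Between the mCherry+ populations, every member that was called was higher in GFP+mCherry+ cells, the population with high SHOX2. SPARC, which binds collagen and helps it assemble, was 4.95-fold higher at day 40 and 3.91-fold higher at day 25 in GFP+mCherry+ cells (ratio of geometric means of FPKM + 1), and PDGFRB and FBN1 were higher at both days. PDGFRA and VCAN were called at neither day. No member was called lower in GFP+mCherry+ than in GFP-mCherry+ cells.

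SPARC stood at 6643 and 5808 FPKM in the GFP+mCherry+ libraries of day 40, against 943.0, 2221 and 943.1 FPKM in GFP-mCherry+ and 4659, 9046 and 4929 FPKM in GFP-mCherry- libraries. The day 25 values were 9324, 3952 and 4887 FPKM in GFP+mCherry+, 1374, 1041 and 2105 FPKM in GFP-mCherry+ and 3430.2, 3247 and 3261 FPKM in GFP-mCherry- libraries. The GFP-mCherry+ libraries were the lowest at both days and overlapped neither other population; of all tested genes, 45.4% at day 40 and 42.2% at day 25 likewise did not overlap between the mCherry+ populations. The log2 difference between GFP+mCherry+ and GFP-mCherry+ cells was 2.31 ± 0.43 (SE; limma, adjusted p = 0.00155) at day 40 and 1.97 ± 0.39 (adjusted p = 0.00297) at day 25. Both calls held when any library of the compared groups was left out, although leaving out library 10 or 13 keeps a single GFP+mCherry+ library of day 40.

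PDGFRB stood at 105 and 134 FPKM in GFP+mCherry+ libraries of day 40, against 14.3, 70.1 and 29.6 FPKM in GFP-mCherry+ and 92.0, 78.4 and 45.4 FPKM in GFP-mCherry- libraries. Its values of day 25 were 72.3, 59.0 and 62.5 FPKM in GFP+mCherry+, 27.6, 33.5 and 16.3 FPKM in GFP-mCherry+ and 32.9, 34.6 and 50.4 FPKM in GFP-mCherry- libraries. The GFP+mCherry+ libraries were the highest at each day and overlapped with neither other population. Against GFP-mCherry- cells PDGFRB was called at neither day, though it was at day 25 with the compared groups alone (limma adjusted p = 0.037). Of all tested genes, 41.6% at day 40 and 35.8% at day 25 did not overlap in that comparison. Against GFP-mCherry+ cells the log2 difference was 1.90 ± 0.47 (limma, adjusted p = 0.00754) at day 40 and 1.35 ± 0.42 (adjusted p = 0.0315) at day 25. Without library 13, which leaves a single GFP+mCherry+ library of day 40, the log2 difference was 1.73. The day 25 call was lost without any of libraries 1, 2, 4, 7 or 8 (limma adjusted p 0.0552 to 0.139) or without a filter on low values (0.0596).

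FBN1 stood at 51.6 and 61.3 FPKM in GFP+mCherry+ libraries of day 40, against 10.0, 37.3 and 15.3 FPKM in GFP-mCherry+ libraries. The day 25 libraries held 46.8, 32.9 and 44.9 FPKM in GFP+mCherry+ and 21.7, 14.9 and 11.8 FPKM in GFP-mCherry+ libraries. The populations did not overlap at either day, and the second GFP-mCherry+ library of day 40 (library 14) was the highest of its group, as it was for SPARC, PDGFRB and 5 other members. The log2 difference was 1.59 ± 0.41 (limma, adjusted p = 0.00953) at day 40 and 1.33 ± 0.36 (adjusted p = 0.0174) at day 25. It was no longer called at day 40 with the compared groups alone (adjusted p = 0.0542), nor at day 25 without libraries 1, 5, 7 or 8 (adjusted p 0.0551 to 0.0773). Without library 13, which leaves a single GFP+mCherry+ library of day 40, the log2 difference was 1.47.

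At day 40, 4 of the 10 members were called higher in GFP+mCherry+ than in GFP-mCherry+ cells (SPARC, PDGFRB, FBN1 and THY1) and 0 lower, where 25.6% of all tested genes were called, 16.3% higher and 9.28% lower. Higher calls made up 63.7% of all calls in this comparison, and 50.0% with quantile normalization. THY1 stood at 37.2 and 32.6 FPKM in GFP+mCherry+ libraries and at 10.0, 20.2 and 23.3 FPKM in GFP-mCherry+ libraries, which did not overlap (1.01 ± 0.35 log2, limma adjusted p = 0.0455). Without library 10 or 13, which leaves a single GFP+mCherry+ library, the THY1 log2 difference was 0.91 or 1.10. Its call was lost without library 11 (limma adjusted p = 0.173). It was also lost with either other scaling (median-of-ratios 0.0696, quantile 0.0664), without a filter (0.0695), with the compared groups alone (0.105) and with sample quality weights (0.148). FN1 and POSTN were called without library 14 (1.63, adjusted p = 0.00934, and 0.87, adjusted p = 0.00963), having been at 0.97 ± 0.53 (adjusted p = 0.198) and 0.47 ± 0.30 (adjusted p = 0.267) with it. The count was 6 without library 14.

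The members called at day 25 were also 4 higher (SPARC, PDGFRB, FBN1 and CILP) and 0 lower, where 20.5% of all tested genes were called, 12.1% higher and 8.45% lower. CILP was low in both populations, at 7.53, 5.48 and 11.3 FPKM in GFP+mCherry+ and 3.28, 1.92 and 3.49 FPKM in GFP-mCherry+ libraries, and its log2 difference was 1.20 ± 0.40 (limma, adjusted p = 0.0412). That call was lost without libraries 1, 2, 5, 7 or 8 (adjusted p 0.0667 to 0.158), with either other scaling (median-of-ratios 0.0538, quantile 0.0712) and without a filter (0.073). THY1 just missed the threshold (0.91 ± 0.31, adjusted p = 0.0503), with 1 GFP-mCherry+ library above the lowest GFP+mCherry+ library, and was called under 4 other settings (adjusted p 0.00244 to 0.0471). FN1 held 2045 and 1614 FPKM in the first 2 GFP+mCherry+ libraries and 856 and 522 FPKM in the first 2 GFP-mCherry+ libraries, without overlap, the third of each being listed at 0. Its log2 difference of 1.44 ± 0.58 missed the threshold (limma, adjusted p = 0.096), was called under 4 other settings (adjusted p 0.00891 to 0.0403), and had an adjusted p of 0.818 with the zeros kept. Without library 1, 7 or 8 SPARC was the 1 member called, and without library 5 there were 2. Over the 10 members the median log2 difference was 0.84 at day 40 and 1.10 at day 25, beside 0.08 and 0.06 over all tested genes.

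**Figure D2:**
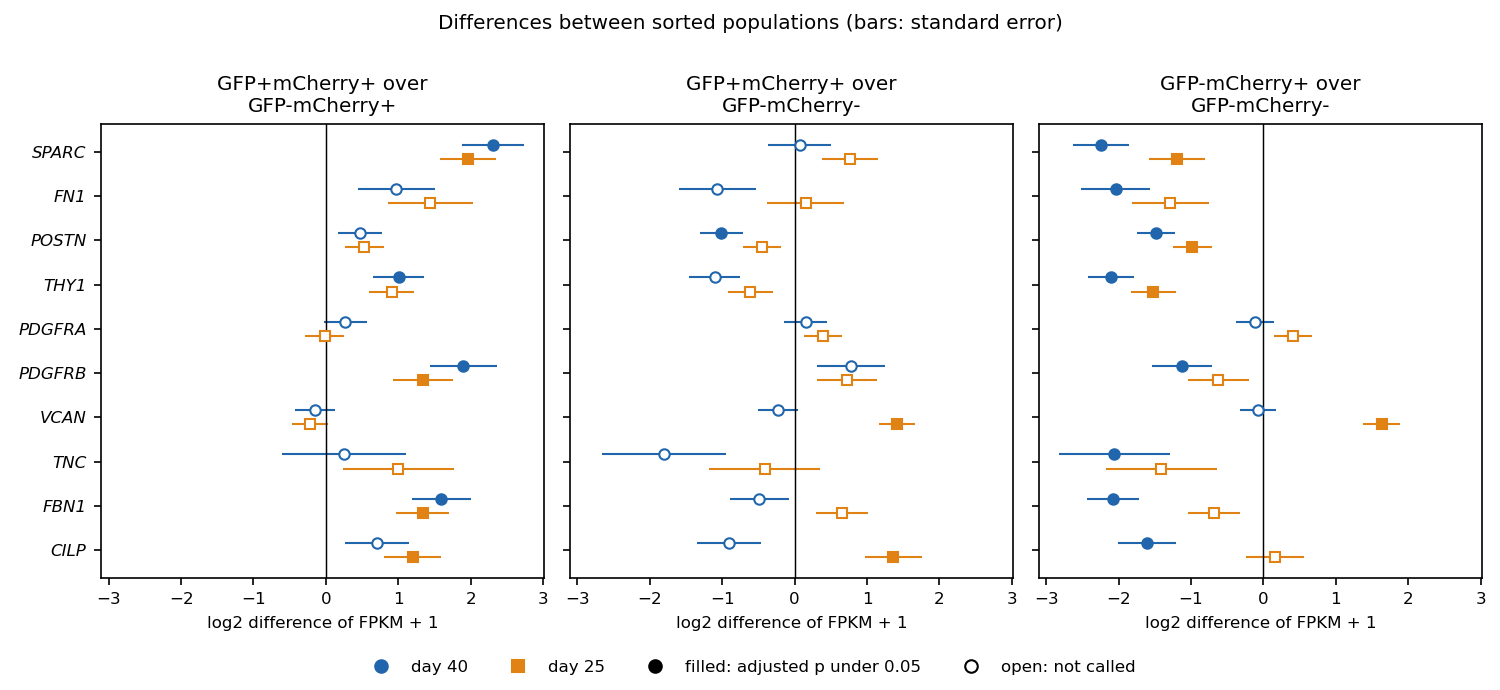
Log2 difference of FPKM + 1 (horizontal axis) for each member between the sorted populations at day 40 and day 25, with limma standard errors as bars and filled symbols for an adjusted p under 0.05. SPARC, PDGFRB and FBN1 are called higher at both days in GFP+mCherry+ over GFP-mCherry+ cells, and 8 of 10 members are called lower at day 40 in GFP-mCherry+ over GFP-mCherry- cells.

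The other side of this pattern was the low level of the members in GFP-mCherry+ cells, set against the GFP-mCherry- cells. These comparisons share the GFP-mCherry+ libraries with the ones above. At day 40, 8 of 10 members were called lower in GFP-mCherry+ than in GFP-mCherry- cells and 0 higher, where 32.1% of all tested genes were called, 18.7% lower and 13.4% higher. THY1, POSTN, SPARC, FN1, FBN1 and CILP stood at 0.212 to 0.358 of their GFP-mCherry- level (ratio of geometric means of FPKM + 1), and PDGFRA and VCAN were the 2 members not called.

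THY1 stood at 10.0, 20.2 and 23.3 FPKM in GFP-mCherry+ libraries of day 40, against 51.4, 89.2 and 94.8 FPKM in GFP-mCherry- libraries. Its day 25 values were 31.2, 16.5 and 17.4 FPKM in GFP-mCherry+ and 72.7, 60.9 and 52.4 FPKM in GFP-mCherry- libraries. All GFP-mCherry+ libraries lay below all GFP-mCherry- libraries of their day, where 40.2% of all tested genes at day 40 and 49.7% at day 25 did not overlap. The log2 difference was -2.11 ± 0.31 (limma, adjusted p = 0.00013) at day 40 and -1.52 ± 0.31 (adjusted p = 0.00167) at day 25, and each call held without any 1 library.

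POSTN stood at 27.0, 76.3 and 39.5 FPKM in GFP-mCherry+ libraries of day 40, against 104, 142 and 127 FPKM in GFP-mCherry- libraries (-1.48 ± 0.27 log2, limma adjusted p = 0.000583). At day 25 it stood at 42.7, 36.1 and 44.4 FPKM in GFP-mCherry+ and 67.2, 97.2 and 83.2 FPKM in GFP-mCherry- libraries (-0.98 ± 0.27, adjusted p = 0.0113). Neither day showed overlap; the day 25 call was lost without library 6 (adjusted p = 0.0557).

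FN1 stood at 409, 2418 and 911 FPKM in GFP-mCherry+ libraries of day 40, against 4152, 4565 and 3329 FPKM in GFP-mCherry- libraries (-2.04 ± 0.48 log2, limma adjusted p = 0.00472, without libraries 7 and 8). The first 2 GFP-mCherry+ libraries of day 25 held 856 and 522 FPKM and the third was listed at 0, against 2042, 1690.4 and 1259 FPKM in GFP-mCherry- libraries (-1.29 ± 0.53, adjusted p = 0.0866; -1.47, adjusted p = 0.0293 with library sets as a replicate block). In both days every GFP-mCherry+ library lay below the GFP-mCherry- libraries. With the zeros kept, the day 40 difference was the same and its adjusted p was 0.561.

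FBN1 was at 10.0, 37.3 and 15.3 FPKM in GFP-mCherry+ libraries of day 40 and at 83.2, 106 and 56.3 FPKM in GFP-mCherry- libraries (-2.08 ± 0.36 log2, limma adjusted p = 0.000449). CILP was at 4.54, 11.2 and 6.79 FPKM in GFP-mCherry+ and at 20.2, 32.7 and 19.9 FPKM in GFP-mCherry- libraries (-1.61 ± 0.40, adjusted p = 0.00534). SPARC differed by -2.24 ± 0.39 (adjusted p = 0.000418). FBN1, CILP and SPARC did not overlap and were called without any 1 library.

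The remaining calls of day 40 were near the threshold. TNC ranged widely, at 6.22, 21.9 and 36.3 FPKM in GFP-mCherry+ and 40.4, 68.0 and 156 FPKM in GFP-mCherry- libraries (-2.06 ± 0.77 log2, limma adjusted p = 0.0496), and was lost without libraries 11, 14, 15 or 18 (adjusted p 0.0683 to 0.212). PDGFRB overlapped between the groups (-1.12 ± 0.42, adjusted p = 0.0494) and was lost without libraries 11, 12, 15 or 17 (adjusted p 0.109 to 0.254). Both also missed it with median-of-ratios scaling (0.0556 for TNC, 0.068 for PDGFRB) and without a filter (0.0909 for TNC, 0.084 for PDGFRB). Neither was called with the zeros kept as deposited (adjusted p = 0.0512 and 0.0508), where 5 members were called.

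At day 25, GFP-mCherry+ cells had 3 members lower than GFP-mCherry- cells (SPARC, POSTN and THY1) and 1 higher (VCAN), where 28.6% of all tested genes were called, 16.5% lower and 12.2% higher. SPARC was lower by -1.20 ± 0.39 log2 (limma, adjusted p = 0.0286), with no overlap, but missed the threshold without libraries 2, 3, 5, 6 or 9 (adjusted p 0.0682 to 0.128), with median-of-ratios scaling (0.0655) and without a filter (0.078). TNC had 1 high GFP-mCherry+ library, at 88.1 FPKM beside 11.7 and 12.8 FPKM, against 184, 50.5 and 29.7 FPKM in GFP-mCherry- libraries (-1.41 ± 0.77, adjusted p = 0.187). With library sets as a replicate block the same difference was called (adjusted p = 0.02). Without that library, library 2, it was called (-2.33, adjusted p = 0.0237). Without library 6, 2 members were called.

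VCAN was called in the other direction. At day 25 it stood at 117, 193 and 203 FPKM in GFP+mCherry+ libraries and 207, 232 and 151 FPKM in GFP-mCherry+ libraries, against 53.7, 80.7 and 54.5 FPKM in GFP-mCherry- libraries. Both mCherry+ populations lay above every GFP-mCherry- library of that day, by 1.41 ± 0.25 log2 (limma, adjusted p = 0.00172) for GFP+mCherry+ and 1.63 ± 0.25 (adjusted p = 0.000153) for GFP-mCherry+ cells. By day 40 the populations overlapped, at 139 and 132 FPKM in GFP+mCherry+, 149.9, 186 and 123 FPKM in GFP-mCherry+ and 176, 186 and 123 FPKM in GFP-mCherry- libraries.

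Between the days VCAN was called in GFP-mCherry- cells, at 176, 186 and 123 FPKM at day 40, against 53.7, 80.7 and 54.5 FPKM at day 25 (1.35 ± 0.25 log2, limma adjusted p = 0.00758), with no overlap. Its difference between GFP+mCherry+ and GFP-mCherry- cells changed between the days by -1.64 ± 0.37 (adjusted p = 0.0412), the 1 member called in that test, where 1.24% of all tested genes were called. That call was lost when any of libraries 3, 4, 7, 9, 12 or 15 was left out (limma adjusted p 0.078 to 0.12). Without library 10 or 13, which leaves a single GFP+mCherry+ library of day 40, the change was -1.68 or -1.61. The matching change between GFP-mCherry+ and GFP-mCherry- cells was -1.71 ± 0.35 and missed the threshold (adjusted p = 0.174), as did all other members; that test called 0.00674% of all genes, and 3 members (VCAN, CILP and FBN1) had an unadjusted p under 0.05.

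In the direct comparison of GFP+mCherry+ with GFP-mCherry- cells, the share of members called was near that of all genes. At day 25, 2 members were called higher (VCAN and CILP) and 0 lower, where 11.1% of all tested genes were called, 5.81% higher and 5.29% lower, and 35.8% did not overlap. The members without overlap numbered 5, with SPARC, PDGFRB and VCAN higher and POSTN and THY1 lower. CILP stood at 7.53, 5.48 and 11.3 FPKM in GFP+mCherry+ and 5.91, 1.48 and 1.35 FPKM in GFP-mCherry- libraries, which overlapped (1.36 ± 0.40 log2, limma adjusted p = 0.0362). Its call was lost without libraries 1, 6, 7 or 9 (adjusted p 0.0713 to 0.156), leaving VCAN as the 1 call, and also without a filter (0.0676) or with the compared groups alone (0.0644).

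At day 40, 0 members were called higher and 1 lower in GFP+mCherry+ than in GFP-mCherry- cells, where 12.0% of all tested genes were called, 7.15% higher and 4.85% lower, and 41.6% did not overlap. The members without overlap numbered 6, with PDGFRB higher and FN1, POSTN, THY1, TNC and CILP lower. POSTN stood at 56.0 and 65.4 FPKM in GFP+mCherry+ libraries, all below the 104, 142 and 127 FPKM of GFP-mCherry- libraries (-1.01 ± 0.30 log2, limma adjusted p = 0.038). It was not called without library 15 or 18 (adjusted p = 0.104 and 0.101) or without a filter (0.0572). Without library 10 or 13, which leaves a single GFP+mCherry+ library, the log2 difference was -0.90 or -1.12. THY1 stood at 37.2 and 32.6 FPKM, below 51.4, 89.2 and 94.8 FPKM in GFP-mCherry- libraries (-1.10 ± 0.35, adjusted p = 0.0514), and was called without library 12 (-1.38, adjusted p = 0.0191). SPARC, at 0.07 ± 0.43 (adjusted p = 0.935), overlapped.

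In GFP-mCherry- cells 3 of 10 members were called higher at day 40 than at day 25 (CILP, FBN1 and VCAN) and 0 lower, where 3.87% of all tested genes were called, 1.56% higher and 2.31% lower, and 26.4% did not overlap. Higher calls made up 40.3% of all calls there, and 51.3% with median-of-ratios scaling. The members without overlap numbered 6, all higher at day 40 (SPARC, FN1, POSTN, VCAN, FBN1 and CILP). FN1 was called with the compared groups alone (1.29 log2, limma adjusted p = 0.0277) and with sample quality weights (1.44, adjusted p = 0.0182). CILP stood at 20.2, 32.7 and 19.9 FPKM at day 40, against 5.91, 1.48 and 1.35 FPKM at day 25 (2.85 ± 0.40 log2, limma adjusted p = 0.00166). FBN1 stood at 83.2, 106 and 56.3 FPKM at day 40, against 33.8, 21.3 and 23.6 FPKM at day 25 (1.59 ± 0.36, adjusted p = 0.0238), a call lost without libraries 6, 9, 12 or 15 (adjusted p 0.0701 to 0.111).

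In the mCherry+ populations limma called 0 members between the days, where 4.08% of all tested genes were called in GFP+mCherry+ cells (2.18% higher, 1.90% lower) and 4.68% in GFP-mCherry+ cells (0.667% higher, 4.01% lower). At an unadjusted p under 0.05 the counts were 0 in GFP+mCherry+ cells and 1, CILP, in GFP-mCherry+ cells. The largest log2 differences of day 40 over day 25 were -1.19 ± 0.86 for TNC in GFP+mCherry+ (limma, adjusted p = 0.473) and 1.08 ± 0.40 for CILP in GFP-mCherry+ cells (adjusted p = 0.135). TNC stood at 16.3 and 26.5 FPKM in GFP+mCherry+ libraries of day 40, against 57.7, 39.4 and 51.3 FPKM at day 25, without overlap. PDGFRB (105 to 134 FPKM at day 40, against 59.0 to 72.3 at day 25) and FBN1 (51.6 to 61.3 FPKM at day 40, against 32.9 to 46.8 at day 25) did not overlap either, both higher at day 40 (0.87 ± 0.47 log2, limma adjusted p = 0.314, and 0.44 ± 0.41, adjusted p = 0.588). That is 3 of 10 members, where 33.9% of all tested genes did not overlap. The change between the days of the GFP+mCherry+ to GFP-mCherry+ difference was called by limma for 0 members (0 at an unadjusted p under 0.05) and 0.0135% of all tested genes.

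The PDGF receptors differed in their calls. PDGFRA stood at 53.5 and 23.6 FPKM in GFP+mCherry+, 26.8, 40.3 and 23.6 FPKM in GFP-mCherry+ and 37.1, 28.9 and 30.3 FPKM in GFP-mCherry- libraries of day 40. On day 25 the levels were 29.3, 34.5 and 40.3 FPKM in GFP+mCherry+, 41.3, 33.7 and 30.4 FPKM in GFP-mCherry+ and 24.5, 22.6 and 31.5 FPKM in GFP-mCherry- libraries. It was the one member called in no comparison. With sample quality weights PDGFRA was called in GFP+mCherry+ over GFP-mCherry- cells of day 25 (0.48 log2, limma adjusted p = 0.0457). Leaving out libraries 13 and 14 kept library 10 as the only GFP+mCherry+ library of day 40. Its log2 difference over GFP-mCherry+ cells was then 1.06. Its highest and lowest group means differed 1.47-fold, and no neighbouring groups in the order of its means were free of overlap.

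PDGFRB exceeded PDGFRA in all 5 GFP+mCherry+ libraries, by 1.97 and 5.68 times at day 40 and 2.47, 1.71 and 1.55 times at day 25. In GFP-mCherry+ libraries the ratio was 0.532, 1.74 and 1.25 at day 40 and 0.668, 0.993 and 0.537 at day 25. In GFP-mCherry- libraries it was 2.48, 2.71 and 1.50 at day 40 and 1.34, 1.53 and 1.60 at day 25. GFP-mCherry+ libraries of day 25 all lay below 1 and below every other library of that day; the ratio was not tested.

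**Figure D3:**
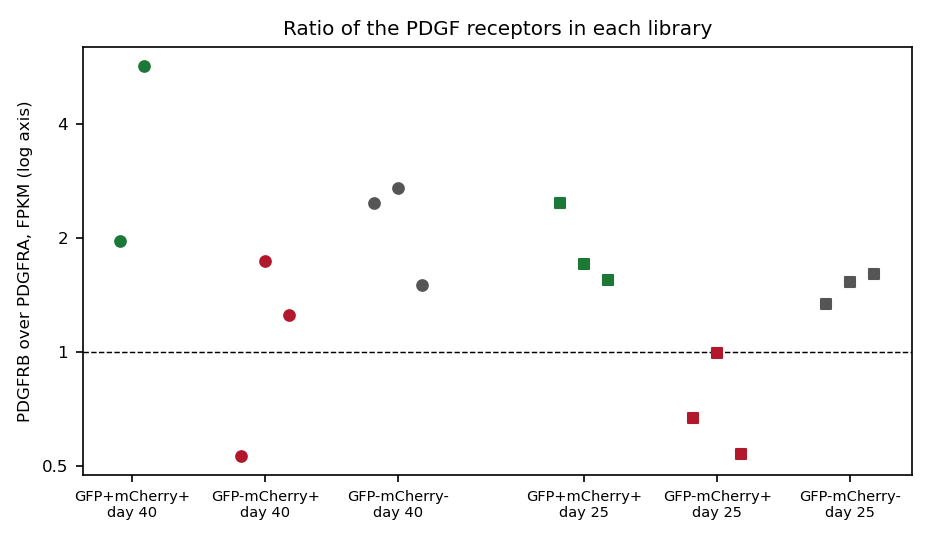
Ratio of PDGFRB to PDGFRA in FPKM (log axis) in each library, by sorted population, day 40 left of day 25; the dashed line marks equal levels. All GFP+mCherry+ and GFP-mCherry- libraries lie above 1, and 4 of the 6 GFP-mCherry+ libraries lie below it.

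The ligands of these receptors gave calls in both directions. Of 5 genes (PDGFA, PDGFB, PDGFC, PDGFD and the receptor-like PDGFRL), 1 was called higher and 1 lower in GFP+mCherry+ than in GFP-mCherry+ cells at day 25, and 2 higher at day 40. Among all tested genes 20.5% were called at day 25 and 25.6% at day 40. PDGFD, a ligand of PDGFRB, averaged 17.2 ± 11.6 FPKM in GFP+mCherry+ and 61.0 ± 8.16 FPKM in GFP-mCherry+ cells at day 25 (SD, n = 3 each; -1.93 ± 0.34 log2, limma adjusted p = 0.00165). PDGFC, a ligand of PDGFRA, differed by 0.97 ± 0.27 (adjusted p = 0.0179). In GFP-mCherry+ against GFP-mCherry- cells PDGFD was higher at both days and PDGFC lower at both (at day 25 by 1.85 ± 0.34, adjusted p = 0.000717, and -2.14 ± 0.27, adjusted p = 2.51e-05).

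Partners of fibrillin-1 in microfibrils and elastic fibres went both ways. Of 17 genes, 7 were called higher and 2 lower in GFP+mCherry+ than in GFP-mCherry+ cells at day 40, and 11 higher and 2 lower at day 25, with median log2 differences of 0.52 and 0.99. All tested genes had 16.3% higher and 9.28% lower at day 40, and 12.1% higher and 8.45% lower at day 25. FBLN5, which links elastin to cells, averaged 53.3 ± 2.18 FPKM in GFP+mCherry+ (SD, n = 2) and 10.4 ± 6.79 FPKM in GFP-mCherry+ cells (n = 3) at day 40 (2.43 ± 0.48 log2, limma adjusted p = 0.00227). The 2 lower at both days were FBN2, the fibrillin of early development, and LTBP1, which holds latent TGF-beta (-1.12 ± 0.24 and -1.65 ± 0.23 at day 40, adjusted p = 0.00355 and 0.000279). FBN2 thus ran opposite to FBN1, at 49.2 ± 11.2 FPKM in GFP+mCherry+ and 107 ± 17.2 FPKM in GFP-mCherry+ cells. Against GFP-mCherry- cells, GFP-mCherry+ cells had 13 of the 17 lower and 2 higher at day 40, the 2 again being FBN2 and LTBP1. There 18.7% of all tested genes were called lower and 13.4% higher.

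Other matricellular genes, where called between the mCherry+ populations, were higher in GFP+mCherry+ cells. Of 20 listed genes 17 were tested, and 8 were called higher and 0 lower in GFP+mCherry+ than in GFP-mCherry+ cells at day 40, and 9 higher and 0 lower at day 25. All tested genes had 16.3% higher and 9.28% lower at day 40, and 12.1% higher and 8.45% lower at day 25. THBS1, the anti-angiogenic thrombospondin-1, averaged 368 ± 63.1 FPKM in GFP+mCherry+ and 132 ± 39.9 FPKM in GFP-mCherry+ cells at day 40 (1.50 ± 0.34 log2, limma adjusted p = 0.00493). SPON2 and THBS3 were higher at both days (1.91 ± 0.31 and 1.76 ± 0.33 at day 40, adjusted p = 0.000683 and 0.00142). SPOCK1, a proteoglycan related to SPARC, was higher in both mCherry+ populations than in GFP-mCherry- cells, at 28.7 ± 3.41 FPKM in GFP+mCherry+ and 23.4 ± 5.87 FPKM in GFP-mCherry+ against 4.71 ± 2.63 FPKM in GFP-mCherry- cells of day 40 (2.48 ± 0.32 and 2.17 ± 0.28, adjusted p = 0.000203 and 4.47e-05).

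Genes that cleave versican or make and bind hyaluronan numbered 14, of which 10 were tested. In GFP+mCherry+ over GFP-mCherry+ cells 5 were called higher at day 40 and 4 at day 25, and 0 lower, while VCAN itself was not called. Higher calls made up 16.3% of all tested genes at day 40 and 12.1% at day 25. ADAMTS1, a versican-cleaving protease, averaged 108 ± 6.95 FPKM in GFP+mCherry+ and 60.0 ± 10.4 FPKM in GFP-mCherry+ cells at day 40 (0.85 ± 0.24 log2, limma adjusted p = 0.0159). HAS1, a hyaluronan synthase, was near the bottom of the measured range, at 1.90 ± 0.87 FPKM in GFP+mCherry+ and 0.047 ± 0.045 FPKM in GFP-mCherry+ cells (1.44 ± 0.27, adjusted p = 0.00153).

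Fibronectin receptors were called between the mCherry+ populations about as often as all genes (25.6% at day 40, 20.5% at day 25). Of 10 integrins and syndecans, 2 were called higher and 0 lower in GFP+mCherry+ than in GFP-mCherry+ cells at each day: ITGA4 and ITGA5 at day 40, ITGB5 and SDC4 at day 25. ITGA5, the alpha chain of the main fibronectin integrin, averaged 45.9 ± 6.68 FPKM in GFP+mCherry+ and 26.1 ± 1.69 FPKM in GFP-mCherry+ cells of day 40 (0.79 ± 0.20 log2, limma adjusted p = 0.00949). In GFP-mCherry+ against GFP-mCherry- cells 5 were lower and 1 higher at day 40, and 4 lower and 1 higher at day 25. All tested genes had 18.7% lower and 13.4% higher at day 40, and 16.5% lower and 12.2% higher at day 25. Of 7 genes of TGF-beta signalling, 2 were higher in GFP+mCherry+ than in GFP-mCherry+ cells at day 40 and 4 at day 25, and 0 lower. The share of all tested genes called higher was 16.3% at day 40 and 12.1% at day 25.

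Among 10 further mesenchymal surface genes the directions were mixed, with 3 called higher and 1 lower in GFP+mCherry+ than in GFP-mCherry+ cells at day 40, and 2 higher and 4 lower at day 25. All tested genes had 16.3% higher and 9.28% lower at day 40, and 12.1% higher and 8.45% lower at day 25. VCAM1, an adhesion receptor, ran against THY1: it averaged 12.8 ± 5.44 FPKM in GFP+mCherry+, 71.4 ± 22.0 FPKM in GFP-mCherry+ and 10.6 ± 5.47 FPKM in GFP-mCherry- cells at day 40. Its log2 difference was -2.41 ± 0.35 in GFP+mCherry+ over GFP-mCherry+ cells (limma, adjusted p = 0.000341) and 2.70 ± 0.31 in GFP-mCherry+ over GFP-mCherry- cells (adjusted p = 1.62e-05). DPP4, a surface peptidase, stood at 72.9 ± 3.56 FPKM in GFP+mCherry+ and 6.77 ± 6.57 FPKM in GFP-mCherry+ cells of day 40 (3.57 ± 0.65, adjusted p = 0.00134), and ITGA11, a collagen receptor, at 42.1 ± 16.5 FPKM in GFP+mCherry+ and 7.06 ± 4.79 FPKM in GFP-mCherry+ cells (2.52 ± 0.57, adjusted p = 0.0046).

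Other fibroblast markers moved with most of the members. The sum of 10 fibroblast markers (COL1A1, COL1A2, COL3A1, COL6A3, DCN, LUM, DDR2, TCF21, DPT and FAP) ran from 11402 to 12417 FPKM in GFP+mCherry+, 1941 to 7292 in GFP-mCherry+ and 11160.0 to 23100.0 in GFP-mCherry- libraries of day 40. The day 25 sums ran from 8540.2 to 14157 in GFP+mCherry+, 2891 to 3977 in GFP-mCherry+ and 7072 to 8637 in GFP-mCherry- libraries. Of the 9 tested, 8 were higher in GFP+mCherry+ than in GFP-mCherry+ cells at day 40 and 7 at day 25, and 9 were lower in GFP-mCherry+ than in GFP-mCherry- cells at day 40 and 6 at day 25. All tested genes had 16.3% and 12.1% higher in the first comparison, and 18.7% and 16.5% lower in the second. DPT was below 1 FPKM in every group and TCF21 in GFP-mCherry+ cells of day 40. The highest GFP-mCherry+ sum of day 40, 7292 FPKM, was in library 14, which was the highest of that group for 8 of the 10 members.

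**Figure D4:**
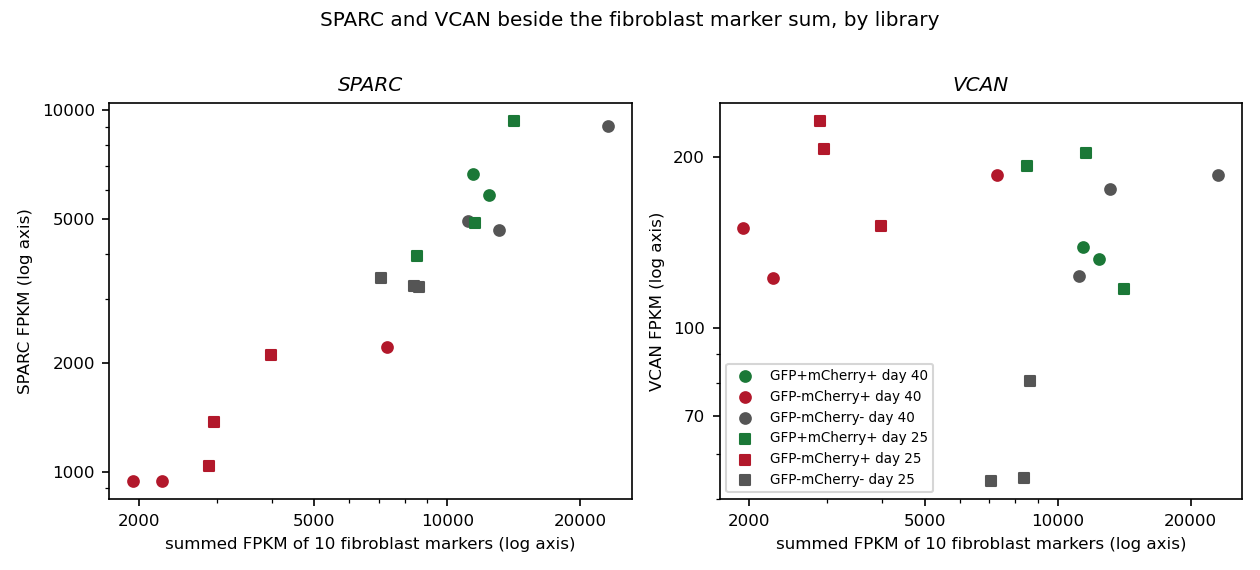
SPARC (left) and VCAN (right) in FPKM against the summed FPKM of 10 fibroblast markers in each library, both on log axes. SPARC is lowest, at 943 to 2221 FPKM, in the GFP-mCherry+ libraries, 5 of which have the lowest marker sums (library 14 does not), while VCAN reaches 232 FPKM in a library with a low sum and is lowest in the GFP-mCherry- libraries of day 25.

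The sum of 10 cardiomyocyte markers ran the other way, from 6741 to 11100.0 FPKM in GFP+mCherry+, 17929.9 to 30161 in GFP-mCherry+ and 671 to 3035 in GFP-mCherry- libraries of day 40, with 7 of 10 lower in GFP+mCherry+ than in GFP-mCherry+ cells. In day 25 libraries the range was 5940.3 to 14772 in GFP+mCherry+, 22265 to 28681 in GFP-mCherry+ and 758 to 1123 in GFP-mCherry- libraries, with 6 of 10 lower. The 10 mural markers overlapped among the populations at day 40, at 941 to 1232 FPKM in GFP+mCherry+, 888 to 2384 in GFP-mCherry+ and 650.4 to 1644 in GFP-mCherry- libraries. At day 25 the mural sum was higher in GFP+mCherry+ libraries than in either other population without overlap, at 1368 to 1872 FPKM in GFP+mCherry+, 924 to 1361 in GFP-mCherry+ and 562 to 1128 in GFP-mCherry- libraries. PDGFRB was highest in GFP+mCherry+ libraries without overlap at both days, and its relation to the mural sum was not tested. Endothelial, epicardial and neural sums were lower in GFP-mCherry+ than in GFP+mCherry+ libraries at both days, with group means of CDH5 and VWF under 1 FPKM in both. The endothelial sums of day 25 all but met, at 50.91 to 236 FPKM in GFP+mCherry+ and 39.3 to 50.86 in GFP-mCherry+ libraries. ERG, KDR and TEK were called higher in GFP+mCherry+ than in GFP-mCherry+ cells at both days, and CDH5, EGFL7 and TIE1 at neither. The epithelial sum was 1672 to 1782 FPKM in GFP+mCherry+ and 908 to 1239.7 in GFP-mCherry+ libraries of day 25. Those of day 40 overlapped, at 970 to 1249 FPKM in GFP+mCherry+ and 703 to 1026 in GFP-mCherry+ libraries. The macrophage sum was 101 to 288 FPKM in GFP+mCherry+ and 35.2 to 54.1 in GFP-mCherry+ libraries of day 40. Its day 25 values overlapped, at 16.3 to 22.1 FPKM in GFP+mCherry+ and 1.55 to 20.7 in GFP-mCherry+ libraries. The sum of 8 hepatic endoderm markers was 548 to 671 FPKM in GFP+mCherry+ and 185 to 438 in GFP-mCherry+ libraries of day 40, without overlap, with 1 of 8 called higher. At day 25 it was 679.6 to 1761 FPKM in GFP+mCherry+ and 133 to 734 in GFP-mCherry+ libraries, which overlapped, with 6 of 8 called higher. Between the mCherry+ populations, 16.3% of all tested genes were called higher at day 40 and 12.1% at day 25. Lower calls made up 9.28% and 8.45%. The cartilage and tendon sum was lower in GFP+mCherry+ than in GFP-mCherry+ libraries at both days, but its genes were split. COL2A1 was called lower at both days (-1.96 log2 at day 40 and -1.62 at day 25) and TNMD at day 40. SOX9 was called higher at day 25 (1.50, limma adjusted p = 0.00746) and not at day 40 (0.75, adjusted p = 0.171). COL9A1 was called at neither day. In bulk sorted cells, fewer cells of a type and less RNA per cell cannot be told apart, and the part of these markers in the members' differences was not tested. With libraries 1, 12 and 14 left out together, a choice made after seeing the data, SPARC, PDGFRB and FBN1 were still called at both days between the mCherry+ populations (SPARC 2.72 at day 40 and 1.61 at day 25, limma adjusted p = 0.000106 and 0.00367).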

How the data were processed

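Sorted H9-derived cells were profiled by RNA-seq with a TruSeq RNA library kit, per the labels' protocols. Values in the deposited table were read as FPKM computed by the authors, a unit inferred from Cufflinks and the values since the header gives none. The submitters' processing notes name bcl2fastq 2.19, cutadapt, STAR 2.5.2b, Cufflinks 2.1.1 and build hg19, with no settings. Read depth and strand handling are not given in the sources used here, so no counting intervals were computed.

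Rows of the same gene name were merged (20368 rows, 20218 genes), and columns were assigned through the library number in the title. The 6 groups are sorted population by day; where the title and the genotype label wrote a sign differently, as in GFP+mCherry+- against GFP+mCherry+, the genotype label was used for GFP+mCherry+ cells and the title for GFP-mCherry- cells. Values were taken as log2(FPKM + 1). The 14845 genes reaching 1 FPKM in 2 or more libraries were fitted with limma 3.58.1 in R 4.3.3, with a mean for each group, all 17 libraries and a trended eBayes (11 residual degrees of freedom). A value of 0 in 1 library whose group otherwise held at least 5 FPKM was set to missing (41 values). P-values were two-sided and adjusted by Benjamini-Hochberg over all tested genes within each of 12 comparisons, with calls at an adjusted p under 0.05; errors are limma's standard errors, and fold changes on this scale understate those of low genes.

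The named genes are the members, up to 4 genes a pathway list (5 for PDGF ligands) with the smallest adjusted p between the mCherry+ populations at day 25, and the 3 genes most correlated with each member. Members, lists, tests and the rule for values at 0 were chosen with earlier results of these data known. ITGA4 was named after its value was seen, and some genes that the rule names are not reported here. SPON1, PECAM1 and SCX of the lists were not analysed here. Tested on simulated data for GFP+mCherry+ against GFP-mCherry+ cells, over 14845 genes, simulated differences of 1 log2 unit were called in 48% and those of 2 in 84% of cases at day 40 (8 false calls), and in 48% and 92% at day 25 (4 false calls). Alternatives were another pseudocount, other filters, scalings and weights, the compared groups alone, the zeros as deposited, a replicate block, and libraries left out.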

Additional observations from a re-analysis of the deposited data

Results flagged for a closer look

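The difference in VCAN between GFP+mCherry+ and GFP-mCherry- cells changed between the days by -1.64 log2 (limma interaction test, adjusted p = 0.0412), which a test of the change itself flagged. The difference was -0.23 ± 0.28 at day 40 and 1.41 ± 0.25 at day 25. At day 40 VCAN stood at 139 and 132 FPKM in GFP+mCherry+ and 176, 186 and 123 FPKM in GFP-mCherry- libraries, and at day 25 at 117, 193 and 203 FPKM in GFP+mCherry+ and 53.7, 80.7 and 54.5 FPKM in GFP-mCherry- libraries.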

How the results depend on the processing

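The counts of members called depended on the libraries and on some settings. With each library left out in turn, GFP+mCherry+ against GFP-mCherry+ cells had 1 to 6 members called at day 40 and 1 to 4 at day 25; GFP+mCherry+ against GFP-mCherry- cells had 0 to 2 at day 40 and 1 to 2 at day 25; GFP-mCherry+ against GFP-mCherry- cells had 6 to 7 at day 40 and 2 to 4 at day 25; day 40 against day 25 in GFP-mCherry- cells had 2 to 3; and the change of GFP+mCherry+ against GFP-mCherry- between the days had 0 to 1. Fewer libraries leave fewer residual degrees of freedom, and without library 10 or 13 the GFP+mCherry+ group of day 40 holds a single library. Without a filter the counts were 2 (GFP+mCherry+ against GFP-mCherry+, day 25), 1 and 0 (GFP+mCherry+ against GFP-mCherry-, day 25 and day 40). The compared groups alone gave 2 at day 40 and 7 at day 25 for GFP+mCherry+ against GFP-mCherry+. Sample quality weights gave 7 there at day 25, 5 for GFP+mCherry+ against GFP-mCherry- at day 25, and 1 for the change of GFP-mCherry+ against GFP-mCherry-. Zeros kept as deposited gave 5 for GFP-mCherry+ against GFP-mCherry- at day 40. Quantile normalization gave 2 for GFP+mCherry+ against GFP-mCherry- at day 40, and leaving out libraries 1, 12 and 14 gave 2 there and 1 at day 25. The change of GFP+mCherry+ against GFP-mCherry- had 0 members called at a pseudocount of 0.1, without a filter, with a filter at 5 FPKM, with the compared groups alone and without libraries 13 and 14, and 2 with sample quality weights. The causes were not tested. Other settings stayed within 1.5 times of each count of members. Counts of all genes called moved with the settings too. In GFP+mCherry+ against GFP-mCherry+ at day 25 they ran from 2762 to 6223 around 3046. For GFP+mCherry+ against GFP-mCherry- they ran from 1348 to 4846 around 1649 at day 25 and 571 to 2822 around 1781 at day 40. GFP-mCherry+ against GFP-mCherry- at day 40 had 3351 to 5185 around 4770. The change of GFP+mCherry+ against GFP-mCherry- had 7 to 263 around 184.

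Consecutive library numbers form sets, which the labels do not describe as shared cultures or batches. Deviations of same-set libraries correlated at -0.135 to 0.503 (median 0.135, 10 of 16 pairs over 0.1), against a median of -0.0697 for libraries of different sets (6 of 32 over 0.1). All 3 same-set pairs of GFP-mCherry+ and GFP-mCherry- libraries of day 25 were over 0.1, a hint of pairing there from the data. Deviations cancel out within a group, so same-set and different-set values depend on each other. The 2 pairs of GFP+mCherry+ and GFP-mCherry+ libraries of day 40 were also over 0.1 (0.168 and 0.164). With 2 GFP+mCherry+ libraries that day, the deviations of 1 mirror those of the other (-0.168 and -0.164 for the crossed pairs). These pairs therefore cannot show pairing. The other population comparisons did not have every pair over 0.1. With these sets as a replicate block, 2 members were called in GFP+mCherry+ against GFP-mCherry- at day 40 and 2 in its change between the days, and no other count moved by over 1.5 times. The block also called FN1 and THY1 in GFP+mCherry+ against GFP-mCherry+ at day 25 (adjusted p = 0.0403 and 0.0101) and FN1 and TNC in GFP-mCherry+ against GFP-mCherry- at day 25 (0.0293 and 0.02). The block was not run for day 40 against day 25, since each set lies within a day. Of 2631 refits of 149 differences of named genes, 2453 kept their side of the threshold, 125 lost a call and 53 gained one. No called value changed sign (0 refits); of the 2453, 100 were values not called that did. Quantile normalization shifted the median of all genes by -0.13 log2 in GFP+mCherry+ against GFP-mCherry+ at day 40 and raised the share of higher calls in GFP-mCherry+ cells between the days to 26.7%, from 14.2%. Over all settings and left-out libraries, all-gene counts ranged from 1155 to 4699 around 3797 in GFP+mCherry+ against GFP-mCherry+ at day 40 and from 10 to 1636 around 695 in GFP-mCherry+ cells between the days. Read depth was not available to set limits on low values.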

Other observations

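Over the libraries, the members other than VCAN and PDGFRA tended to run together: on log2(FPKM + 1) a member's median Pearson r with the other 9 was 0.424 to 0.769 for 8 members, 0.129 for PDGFRA and -0.0869 for VCAN. These values describe 17 libraries (15 for FN1) that share groups, cell line and library set, and carry no p. The genes most like SPARC were SPSB1 (r = 0.984), MEST (0.974) and DCN (0.968), the last encoding the matrix proteoglycan decorin. FBN1 and FN1 both had COL1A2, a chain of type I collagen, among their closest genes (0.962 and 0.930), together with SEC61A1, a subunit of the channel through which secreted proteins enter the endoplasmic reticulum (0.939 for both). POSTN was closest to TXNDC5 (0.953), EDN1 (0.928) and OCLN (0.918). THY1 was closest to SLC35F6 (0.958), KIRREL (0.956) and TFPI2 (0.949), and PDGFRB to DZIP1 (0.943), PLCE1 (0.932) and BTN3A3 (0.932). For PDGFRA the nearest gene was ST8SIA1 at 0.683. For TNC it was TUBB3 (0.902), a neuronal tubulin, and for CILP it was SERPINE2 (0.943).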
